A study of Bos taurus with 6 samples.

Results

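The miR-29 family was examined as all mature bovine miRNAs numbered 29, with any letter or arm suffix. This rule took 5 of the 755 mature names in the count files, namely bta-miR-29a, bta-miR-29b, bta-miR-29c, bta-miR-29d and bta-miR-29e, and used no measured value. The counts are small RNA reads of granulosa cells, the somatic cells inside the follicle wall that nourish the oocyte and make estradiol. Preovulatory dominant follicles and anovulatory subordinate follicles, sorted by their outer diameter, were dissected at day 19 of the oestrous cycle from synchronized Simmental heifers. The synchronization used a prostaglandin analogue and a GnRH analogue, and the same animals gave both follicle types. Each type is represented by 3 libraries, labelled as biological replicates, and the paper states that they are RNA pools. Far more subordinate than dominant follicles were collected, and how they were divided over the pools is not stated. The dominant follicles were few in all, so each dominant pool held few follicles and may hold only 1. A subordinate pool could hold many. Spread between libraries can thus differ in nature between the groups, and few follicles carry the dominant values.

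MiRNAs guide the silencing complex to mRNAs that pair with the seed near their 5′ end. The miR-29 family is best known for targets among extracellular matrix genes, such as collagens, elastin and fibrillin, and in fibroblasts it falls when transforming growth factor beta drives matrix deposition. De novo DNA methyltransferases and the survival factor MCL1 are further known targets. In the follicle, granulosa cells rest on a collagen-containing basal lamina that grows with the follicle and is broken down at ovulation. The sequences of miR-29a and miR-29c are nearly identical, and miR-29b carries a 3′ end that has been linked to import into the nucleus.

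The 5 names come from 6 precursors, all of which were matched to genes in the RefSeq annotation of the ARS-UCD2.0 assembly. MIR29A lies next to MIR29B-1, MIR29B-2 next to MIR29C between the genes CD34 and CD46, and MIR29E next to MIR29D, so the genes form 3 neighbouring pairs. The mature bta-miR-29b is therefore shared by precursors of separate pairs. Its 2 rows held the same count in 5 of the 6 libraries and 23 and 25 reads in dominant replicate 1, so these reads cannot be divided between the precursors. The largest row of each name was used.

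With 1 value per name the libraries held between 190385 and 364125 reads, and the miR-29 names together took between 433 and 511 reads in dominant and between 233 and 327 in subordinate follicles. Values are given as CPM, read counts scaled to a common library size after TMM, a correction for differences in composition between libraries. A working floor of 3 reads was set, which at this depth corresponds to between 8.86 and 13.9 CPM. Levels under it are too uncertain to compare. Differential expression was tested with edgeR's quasi-likelihood test over the 353 miRNAs with at least 1 read in at least 2 replicates of a group. A call required a log2 fold change of 1 or more in either direction, with p not above 0.05 and a false discovery rate (FDR) not above 0.1. Of the 5 miR-29 names, 4 entered this test.

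Taken as a whole, the family was higher in preovulatory dominant follicles. Its summed level was 1768, 2008 and 1627 CPM in dominant replicates 1, 2 and 3 and 966, 792 and 822 CPM in subordinate replicates 1, 2 and 3. The lowest dominant library lay well above the highest subordinate library. The means were 1801 ± 193 and 860 ± 92.6 CPM (SD, n = 3 each). The sum differed by 1.09 on the log2 scale (SE 0.20, 95% interval 0.64 to 1.54, adjusted p = 0.00508 from edgeR), a 2.13-fold difference. This difference ranged from 1.01 to 1.20 on the log2 scale when 1 library at a time was left out. Bta-miR-29a alone supplied at least 91.8% of the family's reads in each library, so the sum mostly restates its change. In these cell pools, a change in the kinds of cells and a change in RNA per cell cannot be told apart.

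Of the 4 tested names, bta-miR-29a and bta-miR-29b were called as higher in dominant follicles and none was called as lower. Over all 353 tested miRNAs 21.5% were called, 11.9% as higher and 9.63% as lower. The FDR alone, with no fold threshold, was also met by these 2 names and by 30.3% of the tested miRNAs. The groups did not overlap in bta-miR-29a, bta-miR-29b and bta-miR-29c, all with the higher values in dominant follicles, while 18.4% of the tested miRNAs had such a separation in that direction. As the names share a family and partly a primary transcript, they are not independent observations.

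Bta-miR-29a was the abundant member. It had 460, 411 and 482 reads in the dominant libraries and 320, 231 and 225 reads in the subordinate libraries. It ranked between 51 and 56 among all names in the dominant libraries and between 70 and 77 in the subordinate libraries. On the CPM scale this was 1623, 1906 and 1535 against 945, 747 and 794. Every dominant library exceeded every subordinate library. The estimated log2 fold change was 1.03 (SE 0.19, 95% interval 0.58 to 1.47, adjusted p = 0.00637 from edgeR), close to the threshold of 1.

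Because bta-miR-29a stood at the fold threshold, its call changed with small shifts of the value. The log2 fold change was 0.96 without dominant replicate 2, 0.95 without subordinate replicate 2, 0.995 without subordinate replicate 3 and 0.99 when the precursor rows of each name were summed, and it was not called in these cases. Its adjusted p from edgeR or DESeq2 was at most 0.0268 under all 15 alternatives. The call thus moved on the fold criterion and not on the test.

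**Figure D1:**
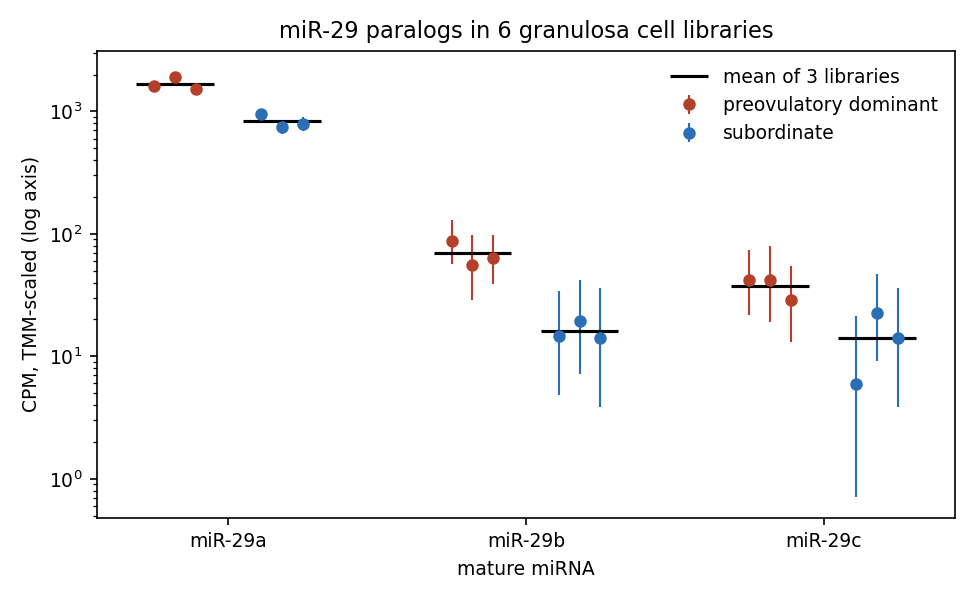
Level of the 3 counted miR-29 paralogs in each library, in CPM after TMM scaling on a log axis. Points are libraries, vertical lines are exact 95% Poisson intervals of the read count and black bars are group means; for miR-29a the dominant libraries lie between 1535 and 1906 CPM and the subordinate libraries between 747 and 945 CPM.

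Bta-miR-29b had the larger change but few reads. The dominant libraries held 25, 12 and 20 reads and the subordinate libraries 5, 6 and 4. In CPM these were 88.2, 55.7 and 63.7 in dominant and 14.8, 19.4 and 14.1 in subordinate follicles. The lowest dominant value was well above the highest subordinate value, yet the exact Poisson intervals of these 2 libraries, 28.8 to 97.2 and 7.12 to 42.2 CPM, overlapped. Such intervals cover counting error only. The group means were 69.2 ± 17.0 and 16.1 ± 2.89 CPM (SD, n = 3 each).

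On the log2 scale bta-miR-29b differed by 2.08 (SE 0.42, 95% interval 1.13 to 3.03, adjusted p = 0.00838 from edgeR), a 4.22-fold difference. Only 34 of the 353 tested miRNAs had a larger log2 fold change, which places bta-miR-29b at rank 35, while bta-miR-29a stood at rank 67. The call of bta-miR-29b held when any library was left out, with log2 fold changes from 1.87 to 2.25 and adjusted p between 0.0183 and 0.0409 in edgeR.

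Bta-miR-29c had 12, 9 and 9 reads in dominant and 2, 7 and 4 reads in subordinate follicles. The levels were 42.3, 41.7 and 28.7 CPM against 5.91, 22.6 and 14.1 CPM. All dominant libraries were above all subordinate libraries, but dominant replicate 3 and subordinate replicate 2 were close together. The estimated log2 fold change was 1.38 (SE 0.55, 95% interval 0.12 to 2.64), with an unadjusted p of 0.0357 and an adjusted p of 0.113 in edgeR, and bta-miR-29c was not called. Without subordinate replicate 2 it was called, with a log2 fold change of 1.88 and an adjusted p of 0.0879 in edgeR. Subordinate replicate 1 also decided its size, which was 1.0 on the log2 scale without that library. The 2 reads in subordinate replicate 1 lie below the working floor of 3 reads, 8.86 CPM in that library. Their exact Poisson interval was 0.72 to 21.3 CPM. With 12 reads or fewer per library, its interval ran from close to 0 to above that of the family sum.

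**Figure D2:**
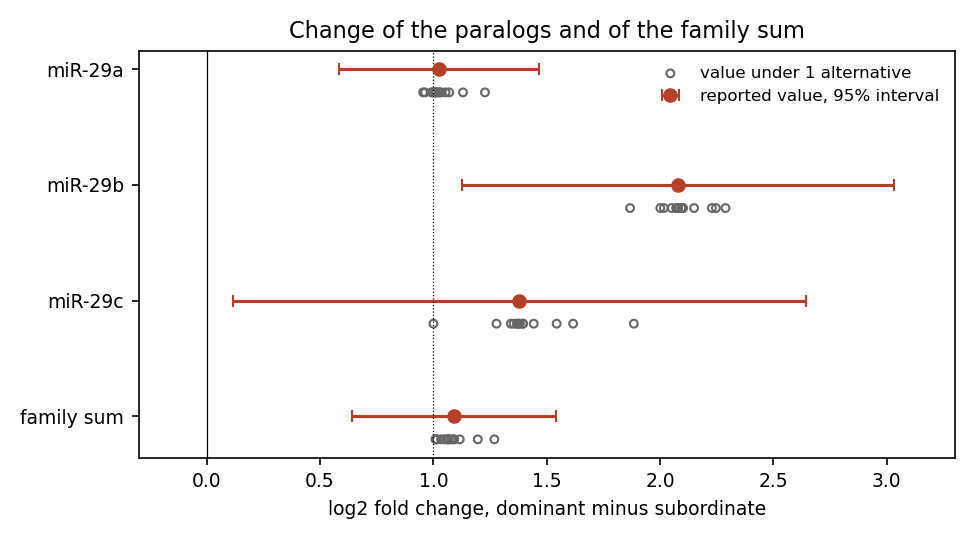
Log2 fold change of miR-29a, miR-29b, miR-29c and their family sum, with dominant minus subordinate on the horizontal axis. Filled points with bars are the reported values with 95% intervals, open circles the values under each alternative and the dotted line the fold threshold of 1; the reported values are 1.03, 2.08, 1.38 and 1.09.

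The remaining members were hardly seen. Bta-miR-29d had 1, 1 and 0 reads in dominant and 0, 1 and 0 reads in subordinate follicles. Bta-miR-29e had 3 reads in dominant replicate 1 and none in the other 5 libraries, and it did not enter the test. Both names stayed at or under 3 reads in every library, so no fold change is given for them.

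The plot of all tested miRNAs shows the 3 counted paralogs above most of the others. The median log2 fold change over all 353 tested miRNAs was -0.20. Relative to that median the log2 fold changes were 1.23 for bta-miR-29a, 2.28 for bta-miR-29b and 1.58 for bta-miR-29c. With libraries scaled by total count alone, the median of all tested miRNAs moved to -0.01 and the same relative values were 1.24, 2.30 and 1.63. A change of scaling moves all log2 fold changes by nearly the same amount, so the relative values could hardly differ.

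**Figure D3:**
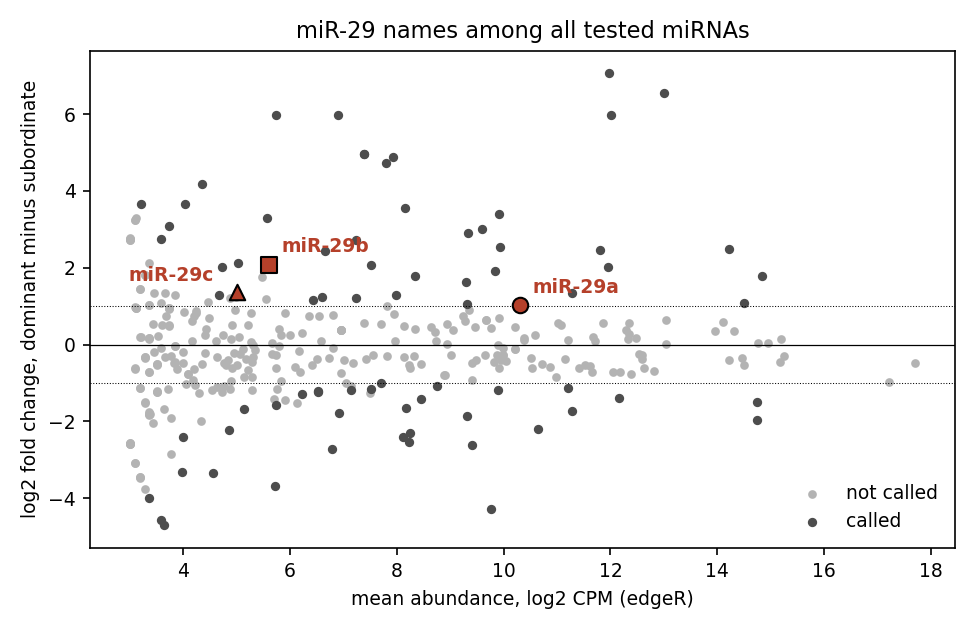
Log2 fold change, dominant minus subordinate, against mean abundance in log2 CPM for the 353 tested miRNAs. Dark points are the 76 called miRNAs, grey points the others, dotted lines the fold thresholds and red symbols miR-29a, miR-29b and miR-29c at 1.03, 2.08 and 1.38.

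Proportions within the family were compared next, since a ratio of paralogs in one library does not depend on how libraries are scaled. Read counts of different miRNAs also carry differences in adapter ligation, so the order of paralogs is an order of reads. Bta-miR-29a made up 91.8, 94.9 and 94.3% of the miR-29 reads in dominant libraries and 97.9, 94.3 and 96.6% in subordinate libraries. The groups overlapped, and the difference of -2.55 percentage points had p = 0.3 (exact permutation test, two-sided, 3 libraries against 3). It was -1.62 points without dominant replicate 1 and -4.15 points with precursor rows summed. Bta-miR-29a thus held at least 91.8% of the family's reads in each library.

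The share of bta-miR-29b was 4.99, 2.77 and 3.91% in dominant and 1.53, 2.45 and 1.72% in subordinate follicles. Every dominant library was above every subordinate library, although dominant replicate 2 and subordinate replicate 2 nearly met. Their exact binomial 95% intervals were 1.44 to 4.79% and 0.904 to 5.25%, and thus overlapped widely. The difference of 1.99 percentage points had p = 0.1 (exact permutation test, the smallest p that this design allows) and an adjusted p of 0.3 over the 3 paralogs. With the precursor rows summed, which counts most bta-miR-29b reads again, the difference was 3.64 points.

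The share of bta-miR-29c was 2.40, 2.08 and 1.76% in dominant and 0.612, 2.86 and 1.72% in subordinate follicles. The subordinate libraries spanned the whole dominant range. The difference of 0.35 points had p = 0.7 (exact permutation test), and it became -0.21 points without subordinate replicate 1, 0.91 points without subordinate replicate 2 and 0.19 points without dominant replicate 1.

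**Figure D4:**
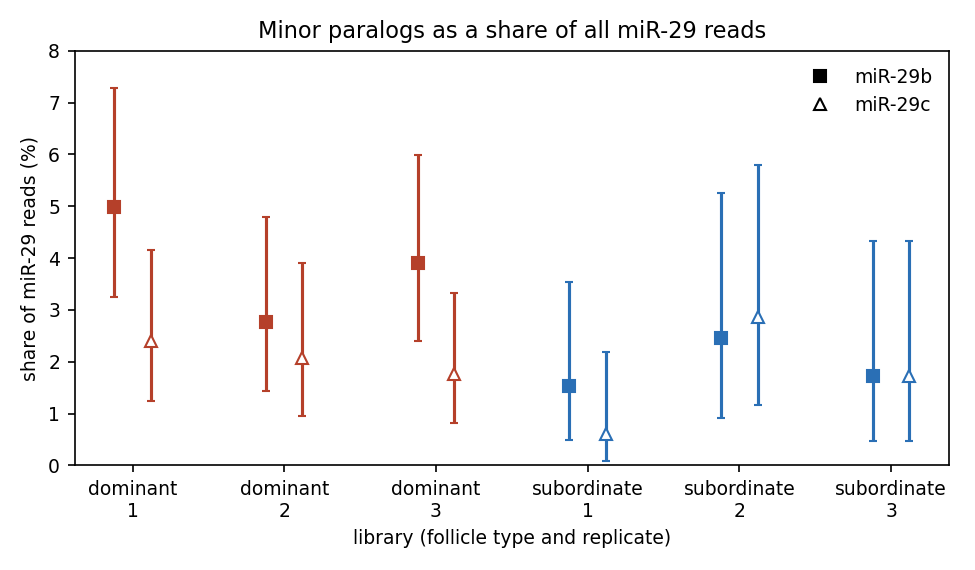
Share of miR-29b (squares) and miR-29c (triangles) in all miR-29 reads, in percent, for each dominant (red) and subordinate (blue) library. Bars are exact 95% binomial intervals; miR-29b lies between 2.77 and 4.99% in dominant and between 1.53 and 2.45% in subordinate libraries, while miR-29c overlaps.

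To ask whether the paralogs changed by different amounts, log2 ratios of their reads were formed in each library after adding 1 read to each. For each 100 reads of bta-miR-29a there were 5.43, 2.92 and 4.15 reads of bta-miR-29b in dominant and 1.56, 2.60 and 1.78 in subordinate follicles. The log2 ratio of bta-miR-29b to bta-miR-29a averaged -4.55 ± 0.42 in dominant and -5.43 ± 0.35 in subordinate follicles (SD, n = 3 each). The difference was 0.88 (exact permutation test, p = 0.1, adjusted p = 0.3 over 3 pairs). The ratio was thus higher in every dominant than in any subordinate library, but no result can pass a threshold of 0.05 in this design.

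The ratio of bta-miR-29c to bta-miR-29a differed by 0.33 between the groups (exact permutation test, p = 0.8) and was reversed, at -0.19, without subordinate replicate 1. The ratio of bta-miR-29b to bta-miR-29c differed by 0.55 (exact permutation test, p = 0.3), and by 0.32 without subordinate replicate 2 and 0.91 without subordinate replicate 1. In dominant follicles bta-miR-29b was above bta-miR-29c in all 3 libraries, with CPM ranges that did not overlap. In dominant replicate 2 this rested on 12 against 9 reads, with overlapping Poisson intervals of 28.8 to 97.2 and 19.1 to 79.2 CPM. In subordinate follicles bta-miR-29b was above bta-miR-29c in 1 library, below in 1 and equal in 1, so the order of these neighbours was not fixed there. With so few reads, a difference in order between the groups is not established.

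Other seed families were set beside miR-29 as a description. Among bta-miR-29a, bta-miR-29b and bta-miR-29c the log2 fold changes spanned 1.05, and all were above 0. The 9 members of the let-7 family with bta-miR-98 spanned 0.99, from -0.36 for bta-let-7d to 0.63 for bta-miR-98, and none was called. The 6 members of the miR-30 family spanned 1.61, from -0.72 for bta-miR-30c to 0.90 for bta-miR-30f, again with none called. Among bta-miR-148a, bta-miR-148b and bta-miR-152 the span was 1.63, from -0.41 for bta-miR-148a to 1.22 for bta-miR-152, which was called. The members of these other families thus lay on both sides of 0, and no test was made of the difference between families. The families shown are a choice and not a survey of seed families. A shared direction was not particular to miR-29. Bta-miR-132 and bta-miR-212, which also share a seed, had log2 fold changes of 5.99 and 4.73.

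**Figure D5:**
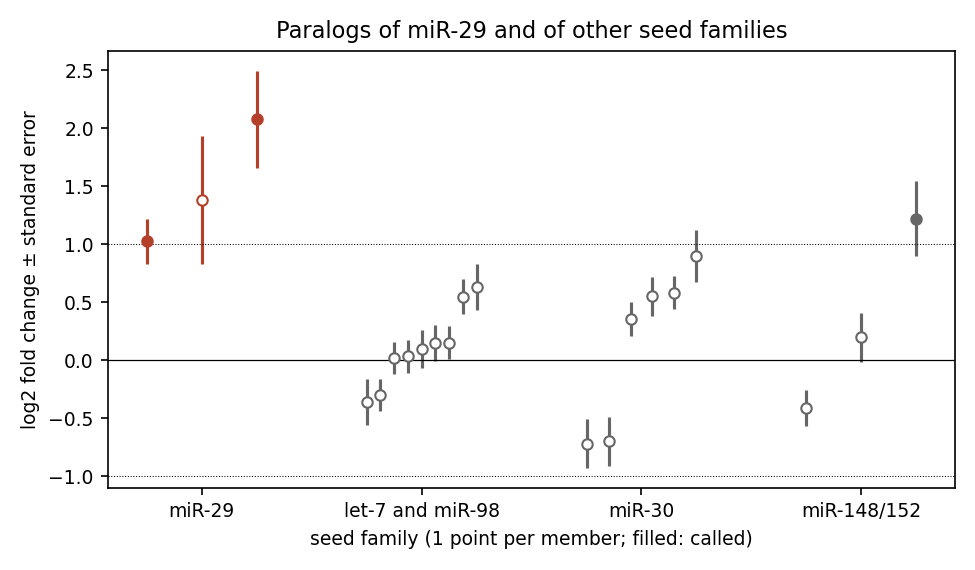
Log2 fold change with standard error for each member of the miR-29, let-7, miR-30 and miR-148 families, the last with miR-152, dominant minus subordinate. Filled points are called and dotted lines mark the fold thresholds; the 3 miR-29 paralogs lie between 1.03 and 2.08, and the members of each other family lie on both sides of 0.

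A list of 29 miRNAs linked to extracellular matrix and fibrosis was examined beside the family, and 24 of them were tested. Of these, 4 were called as higher and 1 as lower in dominant follicles, beside 11.9 and 9.63% of all tested miRNAs. The median log2 fold change of the list was -0.26, against -0.20 for all tested miRNAs. Called as higher were bta-miR-132 and bta-miR-212, which share a precursor transcript that gonadotropins induce in granulosa cells, with log2 fold changes of 5.99 and 4.73. The arms of miR-21, a miRNA raised in fibrotic tissue, had 1.91 for bta-miR-21-3p and 1.09 for bta-miR-21-5p. The latter stood near both thresholds (95% interval 0.14 to 2.03, adjusted p = 0.0956 from edgeR) and was not called at an FDR of 0.05.

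Bta-miR-214, a miRNA of stromal cells, was lower, at -1.20 on the log2 scale (SE 0.35, adjusted p = 0.0417 from edgeR). It was not called with total-count scaling, which left 5 of the list higher and none lower. Without dominant replicate 1 or subordinate replicate 3 the list had 3 called as higher and none as lower, so bta-miR-214 was not called there either. The abundant bta-miR-26a, at -0.49, and bta-miR-143, at -0.53, did not pass. The list as a whole thus gave counts near the background.

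The libraries also differed in markers of other cells. The 7 blood cell miRNAs summed to 14205, 8900 and 1305 CPM in dominant replicates 1, 2 and 3 and to between 1366 and 2029 CPM in subordinate follicles. Most of the dominant sums was bta-miR-486 alone, with 10807, 6512 and 927 CPM. Of the 6 tested, 2, bta-miR-451 and bta-miR-486, were called as higher in dominant follicles. The other 4 were not called, with log2 fold changes of 1.33 for bta-miR-144, 0.53 for bta-miR-142-5p, 0.08 for bta-miR-150 and -0.48 for bta-miR-223. The list thus did not move as a whole. Dominant replicate 3 was below all subordinate libraries in the blood cell sum. Its levels were 1535 CPM of bta-miR-29a, 63.7 CPM of bta-miR-29b and 28.7 CPM of bta-miR-29c, above every subordinate library. The part of blood cells in the miR-29 values was not tested.

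The endothelial miR-126 arms summed to between 73.2 and 293 CPM in dominant and between 354 and 540 CPM in subordinate follicles, with neither of the 2 called. The 5 stromal and thecal miRNAs summed to between 17601 and 27821 CPM in dominant and between 21063 and 35748 CPM in subordinate follicles, and 1 of the 5, bta-miR-214, was called as lower, with the exceptions given above. The endothelial sum was lower in every dominant library than in any subordinate library, the stromal sums overlapped, and the part of either in the miR-29 values was not tested. Bta-miR-202, a miRNA of gonadal somatic cells, had between 43506 and 46747 CPM in dominant and between 11575 and 15230 CPM in subordinate follicles. It was thus abundant in all 6 libraries but not even between the groups. It was called as higher in dominant follicles, with a 3.47-fold difference from edgeR. The part of this difference in the miR-29 values was not tested.

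The miRNAs with the most similar pattern were found by Pearson correlation of log2 CPM over the 6 libraries, among tested miRNAs averaging 10 reads or more, which were 193 for bta-miR-29a and for bta-miR-29b and 194 for bta-miR-29c. For bta-miR-29a these were bta-miR-22-5p (r = 0.988), bta-miR-708 (r = 0.987) and bta-miR-22-3p (r = 0.981). For bta-miR-29b they were bta-miR-204 (r = 0.981), bta-miR-32 (r = 0.979) and bta-miR-202 (r = 0.978). For bta-miR-29c they were bta-miR-30f (r = 0.920), bta-miR-374b (r = 0.902) and bta-miR-2313-3p (r = 0.899).

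The 6 points of each correlation share the same libraries and the same scaling, and most of their spread is the difference between the groups. Each paralog correlated less with the other paralogs than with its closest miRNAs, but those were picked for the highest correlations, so the choice favours this order. Bta-miR-29c, averaging 7.17 reads, was not among the candidates for bta-miR-29a and bta-miR-29b. The correlations of the paralogs were 0.907 between bta-miR-29a and bta-miR-29b, 0.854 between bta-miR-29b and bta-miR-29c and 0.714 between bta-miR-29a and bta-miR-29c. The lowest value involves bta-miR-29c, the member with the fewest reads of the 3. Of the 9 closest miRNAs, 7 were called as higher in dominant follicles, which the way they were chosen favours, and bta-miR-30f and bta-miR-374b, with log2 fold changes of 0.90 and 0.61, were not called.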

How the data were processed

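Small RNA libraries from granulosa cell pools of 3 preovulatory dominant and 3 subordinate groups were analysed, with follicle type taken from the sample labels. The deposited values are read counts without normalization. Trimming by the authors used Cutadapt and Seqtk, followed by mapping with Bowtie to the bovine genome (UMD3.1, with base calls by CASAVA 1.8.0, from the submitters' processing notes) and counting on miRBase miRNAs with miRDeep2. Reads that fit several names can be repeated under each of them. For example, bta-miR-199a-3p and bta-miR-199c both averaged 291 reads with a log2 fold change of -0.27, and both are among the 353 tested names. The near-identical bta-miR-29a and bta-miR-29c had 460 against 12 reads in dominant replicate 1 and 320 against 2 in subordinate replicate 1. Their reads were thus not repeated as a whole. Whether a part of them was repeated or split is not known. Each library had 906 rows for 755 mature names, and the largest precursor row of each name was used. No pair of libraries held identical values. The replicate libraries are pools, so p-values measure the spread between pools.

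Counts were tested with edgeR 4.0.16 in R 4.3.3 (TMM, quasi-likelihood fit, follicle type as the only term, Benjamini-Hochberg adjustment over 353 miRNAs). Each SE was derived from the fold estimate and its F statistic (estimate over root F). For the family sum, the miR-29 rows were replaced by their sum. Shares and log2 ratios were tested by exact two-sided permutation, with a smallest p of 0.1. Log2 CPM used a prior count of 1. Python 3.11.15, numpy 2.4.6, pandas 2.3.3, scipy 1.17.1 and matplotlib 3.10.9 served for the rest.

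The miRNAs named are all names numbered 29, the matrix list, the cell type markers, the 3 miRNAs most correlated with each counted paralog, and the members of the let-7, miR-30 and miR-148 families, the last with bta-miR-152. Bta-miR-199c is named only as an example of repeated counts. Members and lists were chosen with earlier results of these data known. Alternatives were DESeq2 1.42.0 with and without filters, other size factors, other low-count filters, summed precursor rows, a replicate block, each library left out, a false discovery rate of 0.05, 0.5 reads added to ratios and a denominator without bta-miR-29d and bta-miR-29e.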

Additional observations from a re-analysis of the deposited data

How the results depend on the processing

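All 13 results kept their direction under the alternatives except the share of bta-miR-29c and its ratio to bta-miR-29a. Of 104 alternative values of fold changes and counts, 93 also kept their side of the threshold or stayed within 1.5 times the reported count. The other 54 are shares and log2 ratios, whose exact tests cannot reach a p of 0.05, so their tests say nothing about stability. Summing precursor rows gave bta-miR-29a a log2 fold change of 0.99 and left 1 miR-29 name called. Scaling by total count raised bta-miR-29c to 1.62, which was called (adjusted p = 0.0713 from edgeR), giving 3 called names. It also changed the split of all calls from 42 higher and 34 lower to 47 higher and 23 lower. Over the 6 fits that left out 1 library each, the log2 fold change ranged from 0.95 to 1.13 for bta-miR-29a (called in 3) and from 1.0 to 1.88 for bta-miR-29c (called in 1), the number of called miR-29 names from 1 to 2, that of called matrix-linked miRNAs from 3 to 6 and that of all calls from 54 to 78. Over the same fits the group difference ranged from -0.21 to 0.91 points for the share of bta-miR-29c and from -0.19 to 0.75 for its log2 ratio to bta-miR-29a, both negative without subordinate replicate 1. The cause was not tested. Bta-miR-29c gave no value when 10 reads were required in 3 or more libraries, which it did not reach.

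Replicate numbers are shared by the groups in the labels, but nothing says what they pair. The deviations from group means of same-numbered libraries correlated at 0.00719, 0.112 and 0.269 over the tested miRNAs, and dominant replicate 1 correlated best with subordinate replicate 2 (0.181). With the replicate block the log2 fold changes were 1.03, 2.07 and 1.44 for bta-miR-29a, bta-miR-29b and bta-miR-29c and 1.09 for the family sum, no call among them changed, and 71 miRNAs were called in place of 76. Paired sign flips of 3 differences cannot go below 0.25. Read depth limits bta-miR-29b and bta-miR-29c, with 25 reads or fewer per library, and leaves bta-miR-29d and bta-miR-29e at the level of single reads.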
